A study of Mus musculus with 2 samples.

Results

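Muscle atrophy and denervation genes were followed in single-nucleus RNA sequencing (snRNA-seq) of dFLEx CDS tumors. The set held 10 genes, which were read by symbol from the 19059 features of the count matrices and each had 1 row. They were 3 genes of ubiquitin ligases (Trim63, Fbxo32 and Fbxo30), 2 FOXO transcription factors (Foxo1 and Foxo3), 3 genes of the neuromuscular synapse (Chrna1, Chrng and Musk) and 2 genes known from denervated muscle (Ncam1 and Runx1). The values come from nuclei of 4 untreated tumors and of 4 tumors taken after 21 days of Minnelide at 0.42 mg/kg. Minnelide, which dissolves in water, releases triptolide in the body, an inhibitor of transcription by RNA polymerase II.

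The dFLEx CDS mouse carries an allele that expresses the CIC::DUX4 fusion after both Cre and FLP recombinases have acted. The study delivered these as pCAG-Cre and pCAG-FLPE plasmids, electroporated into the hind limb muscle, so recombination is not limited to 1 cell type and host muscle surrounds the tumor. The untreated group is labelled dFLEx CDS +/-. The labels of the Minnelide group name the dFLEx CDS tumors but no zygosity, and neither group has a strain or an age in the labels. Each count matrix was taken as a tumor. The numbers of the tumors are names only and pair no tumors. Whether every matrix comes from a different mouse is not stated beside the group size, and the p-values measure the spread between these tumors.

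Adult muscle loses mass mainly through the ubiquitin-proteasome system and through autophagy. Trim63 encodes MuRF1, a ligase of the sarcomere, and Fbxo32 encodes atrogin-1, the F-box subunit of a ligase complex. Both are standard markers of atrophy and are transcriptional targets of FOXO proteins, which insulin and IGF signaling through AKT keeps out of the nucleus. Fbxo30 encodes a further F-box protein of the atrophy program. At the neuromuscular junction, Musk is the receptor kinase that organizes acetylcholine receptors, Chrna1 encodes the receptor alpha subunit and Chrng the gamma subunit of its embryonic form. Denervation spreads receptor genes along the fiber, an activity carried by myogenin, and it is known to raise Ncam1, a cell adhesion molecule, and Runx1, a transcription factor that protects denervated fibers.

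The 250 bases before the transcription start are shown for 4 genes whose level was highest in muscle nuclei, because FOXO proteins are known to act on Trim63 and myogenin on acetylcholine receptor genes. They were taken from RefSeq on GRCm38.p6, where 8 of the 10 genes had an entry. Capitals mark GTAAACA or its reverse complement, the core bound by FOXO proteins, and CAGCTG, an E-box form bound by MyoD and myogenin. Both strands were searched, and no match in these windows overlaps another. The Trim63 window is chr4:134314870-134315119 on the + strand, that of Chrna1 is chr2:73580339-73580588 on the - strand, that of Chrng is chr1:87205561-87205810 on the + strand and that of Musk is chr4:58285712-58285961 on the + strand.
Trim63: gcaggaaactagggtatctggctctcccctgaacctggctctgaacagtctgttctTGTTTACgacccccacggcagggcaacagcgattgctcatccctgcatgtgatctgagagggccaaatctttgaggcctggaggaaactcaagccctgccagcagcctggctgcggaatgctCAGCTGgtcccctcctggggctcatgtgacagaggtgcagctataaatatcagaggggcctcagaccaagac
Chrna1: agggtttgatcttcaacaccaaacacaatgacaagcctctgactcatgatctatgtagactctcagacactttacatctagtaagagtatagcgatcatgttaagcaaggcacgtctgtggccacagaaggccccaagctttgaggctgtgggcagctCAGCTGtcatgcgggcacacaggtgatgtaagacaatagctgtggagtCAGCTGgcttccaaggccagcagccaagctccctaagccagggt
Chrng: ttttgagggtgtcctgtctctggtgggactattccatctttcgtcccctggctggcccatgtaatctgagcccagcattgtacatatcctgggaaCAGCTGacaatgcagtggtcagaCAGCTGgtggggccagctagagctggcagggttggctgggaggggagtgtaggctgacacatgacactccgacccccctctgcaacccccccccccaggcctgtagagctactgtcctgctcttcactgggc
Musk: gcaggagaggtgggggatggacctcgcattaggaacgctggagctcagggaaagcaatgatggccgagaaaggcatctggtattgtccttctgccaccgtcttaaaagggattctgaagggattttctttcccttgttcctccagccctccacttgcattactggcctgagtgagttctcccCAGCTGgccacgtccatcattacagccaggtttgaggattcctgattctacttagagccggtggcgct
In Trim63 the FOXO core begins 194 bases before the start and the E-box 72 bases before it. Chrna1 had E-boxes at 92 and 44 bases, Chrng at 155 and 132 bases and Musk at 68 bases before the start. Of the 32851 mouse promoters searched, 3.17% held GTAAACA and 13.0% held CAGCTG. The windows of Fbxo30, Foxo1, Foxo3 and Runx1 held neither string of letters. A match describes the sequence only.

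The 10 genes lie on 8 chromosomes in GENCODE M39 on GRCm39. Trim63 and Musk are on chromosome 4, and Fbxo30 and Foxo3 are on chromosome 10. No other annotated gene overlaps Trim63 or Chrng. Foxo1, Foxo3 and Ncam1 overlap genes on their own strand, so their counts in shared stretches are uncertain. The other 5 genes overlap at least 1 gene on the opposite strand only, and whether strand was used in counting is not given in the sources used here.

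The tumors were deposited with 18487409 to 73211599 UMIs (unique molecular identifiers, the count of captured RNA molecules) in 5210 to 12615 nuclei. The median was 883 UMIs per nucleus in untreated 4 and 2329 to 4031 in the other tumors. Barcodes were shared, 49 to 132 of them, by the 4 pairs of an untreated and a Minnelide tumor that carried the same bases at a fixed barcode position. The other 24 pairs carried different bases there, so they could share no barcode. The labels give no run, so run and treatment cannot be told apart. After filtering, 59907 nuclei were retained. Untreated 1 and Minnelide 2 stood apart from the other tumors in clustering, and values without them are given beside many of the results they moved.

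Nuclei were clustered without the 10 genes, and clusters were named from markers. Of the retained nuclei, 5467 were myocyte-like, with 1246, 164, 443 and 557 nuclei in untreated 1 to 4 and 467, 2474, 63 and 53 nuclei in Minnelide 1 to 4. All 12 myocyte markers were raised in each of the 4 clusters concerned. The clusters were named from these markers, so this does not test the name. The summed level of these markers was 30528 to 81391 CPM (counts of a gene scaled to 1000000 UMIs of a class in a tumor) in myocyte-like nuclei, against 428 to 11593 CPM in tumor-like nuclei. Satellite cell markers summed to 22.1 to 99.9 CPM in myocyte-like nuclei. Markers of the tumor list summed there to 2156 to 14594 CPM, against 13765 to 22577 CPM in tumor-like nuclei.

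The ligase genes Trim63 and Fbxo32 and the synaptic genes Chrna1, Chrng and Musk had their highest level in myocyte-like nuclei in 8 of 8 tumors. Foxo1, Foxo3, Ncam1 and Runx1 did not follow muscle nuclei, and Fbxo30 was spread over all classes. These are descriptions, because the classes were made from the same nuclei. The median level of Trim63 over tumors was 703 CPM in myocyte-like nuclei and 7.06 to 9.18 CPM in the other 6 classes. That of Fbxo32 was 1010.2 CPM against 36.4 to 117 CPM. Both ligase genes were thus low outside muscle nuclei, and the order of the other classes did not exceed their spread.

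Chrna1 was at a median of 53.3 CPM in myocyte-like nuclei and at 2.69 to 9.18 CPM elsewhere. Chrng was at 15.7 CPM against 0 to 0.791 CPM. Musk was at 305 CPM, and fibroblast-like nuclei came next at 25.3 CPM. The synaptic genes were therefore low in the other classes, and Chrng was near the limit of detection there. Fbxo30 had medians of 36.4 to 56.4 CPM over the 7 classes, whose ranges overlapped.

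Runx1 was highest in fibroblast-like nuclei in 8 of 8 tumors, at a median of 2491 CPM against 913 CPM in myocyte-like nuclei. Foxo3 was highest in macrophage-like nuclei in 8 of 8 tumors, at 234 CPM, and myocyte-like nuclei had the lowest median of the 7 classes, 113 CPM. Foxo1 was highest in endothelial-like nuclei in 5 of 8 tumors, at 345 CPM against 195 CPM in myocyte-like and 74.9 CPM in tumor-like nuclei. Ncam1 had medians of 1010 CPM in tumor-like, 998 CPM in myocyte-like and 987 CPM in fibroblast-like nuclei, which did not differ beyond their spread, and 428 CPM in endothelial-like nuclei.

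**Figure D1:**
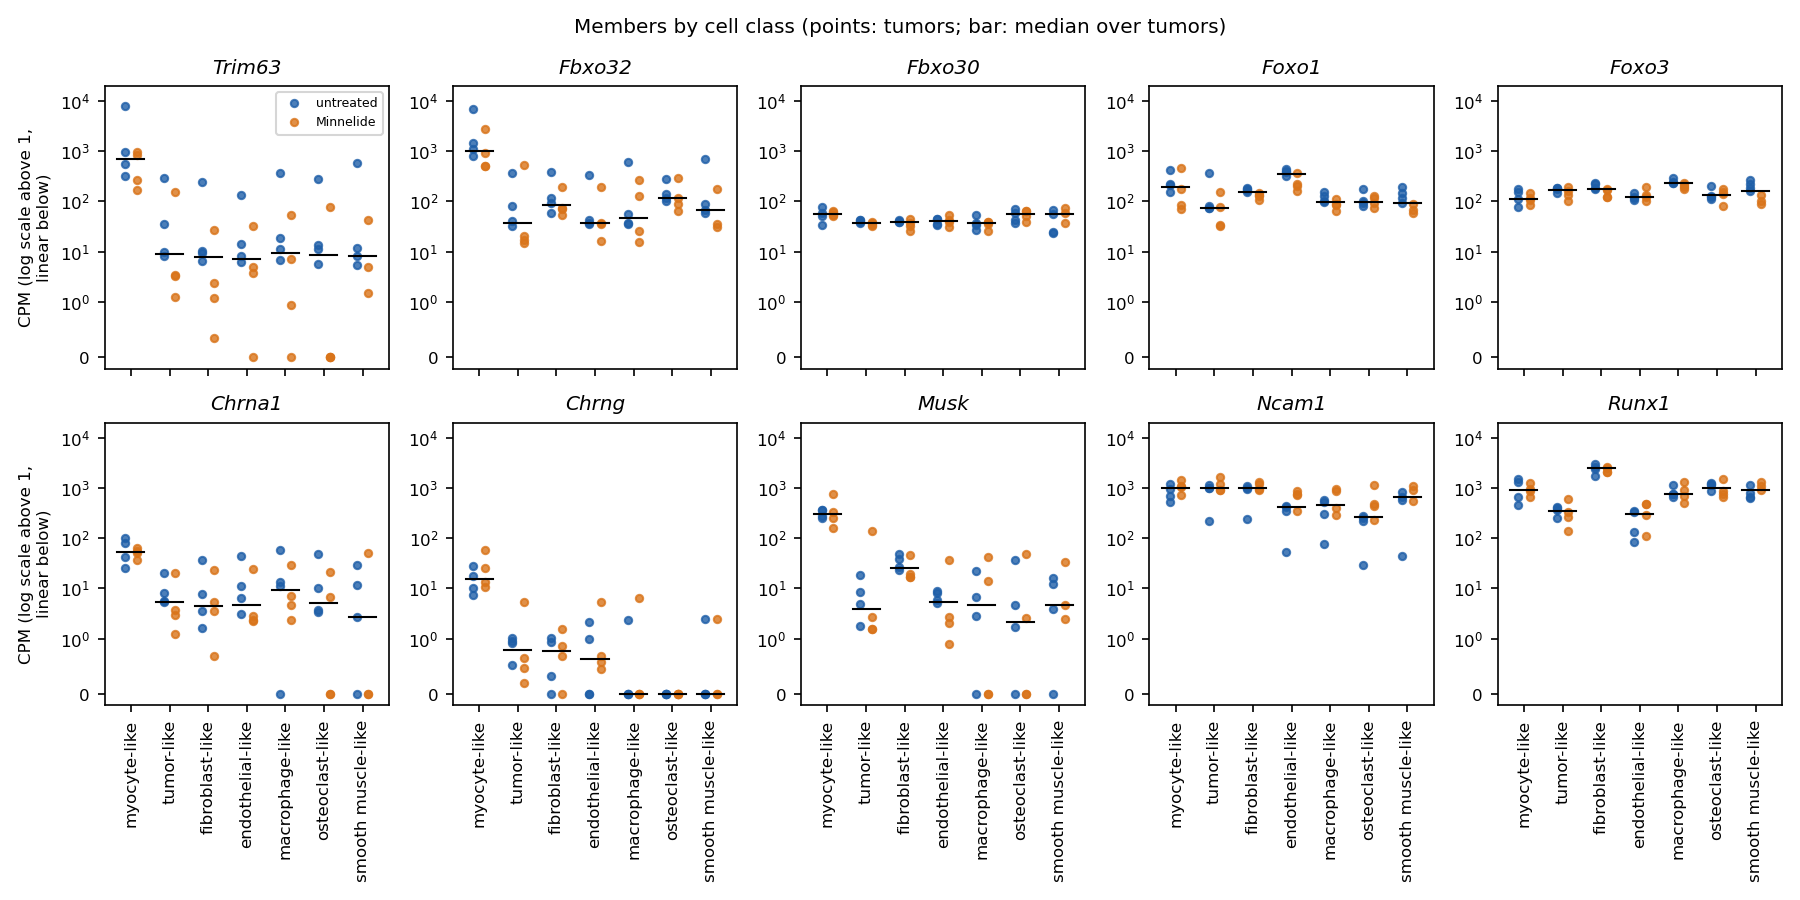
Level of each gene in CPM (vertical axis, logarithmic above 1 and linear below) in the 7 named cell classes (horizontal axis), with 1 point per tumor, blue for untreated and orange for Minnelide, and a bar at the median over tumors. Trim63, Fbxo32, Chrna1, Chrng and Musk are highest in myocyte-like nuclei in all 8 tumors, Runx1 in fibroblast-like and Foxo3 in macrophage-like nuclei.

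The share of nuclei with a UMI was also compared at equal depth. Each nucleus was thinned to 1000 UMIs and shallower nuclei were left out, which removed 0 to 38 myocyte-like nuclei per tumor but 5806 of the 8463 tumor-like nuclei of untreated 4 and 459 of 3540 of untreated 3. The median share over tumors with a Trim63 UMI was 36.2% of myocyte-like and 0.983% of tumor-like nuclei. For Fbxo32 the shares were 40.4% and 3.56%, and for Musk 20.2% and 0.371%. Ncam1 was the reverse, with 43.5% of myocyte-like and 60.6% of tumor-like nuclei. Without thinning, the shares for Trim63 were 53.9% and 3.01%. A Chrng UMI was found in 0.912% of thinned myocyte-like nuclei.

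Outside muscle, muscle genes were highest in the tumors that held the most muscle nuclei. In tumor-like nuclei Trim63 was at 298 CPM in untreated 1 and 151 CPM in Minnelide 2, and at 1.25 to 36.2 CPM in the other 6 tumors. The summed myocyte markers of these tumor-like nuclei were 25.3% of their level in myocyte-like nuclei in Minnelide 2, 11.8% in untreated 1 and 0.871% to 8.40% in the others. The same ratio for Trim63 was 17.6%, 3.68% and 0.360% to 3.74%, and for Musk it was 18.3%, 4.84% and 0.470% to 3.09%. The part of free RNA or of mixed nuclei in these levels was not tested.

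The first comparison asked whether Minnelide changed the 10 genes in muscle nuclei beside the tumor. None of the 10 passed the test, and the untreated and Minnelide tumors overlapped for every one of them, where 5.85% of the 9066 genes with a mean of at least 10 CPM did not overlap. With edgeR's quasi-likelihood test and Benjamini-Hochberg adjustment 0 of 10246 genes were called in myocyte-like nuclei (0%), although 952 had an unadjusted p under 0.05. DESeq2 called 25 genes (0.244%), none of them among the 10. It gave no adjusted p for 3982 of the 10246 genes, which count here as not called.

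Trim63 ranged over more than an order of magnitude. It was at 8090, 549, 322 and 969 CPM in untreated 1 to 4 and at 172, 857, 271 and 959 CPM in Minnelide 1 to 4. Untreated 1 alone lay far above the rest, and the other 7 tumors formed 1 overlapping range. The log2 change was -2.16 ± 0.98 (SE, n = 4 per group, edgeR adjusted p = 0.538). Without untreated 1 it was -0.23 (edgeR adjusted p = 0.968).

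Fbxo32 was at 6962, 815, 1090 and 1474 CPM in the untreated tumors and at 498, 2771, 506 and 930 CPM in the Minnelide tumors. Untreated 1 was again the highest and Minnelide 2 the next. The log2 change was -1.12 ± 0.78 (SE, edgeR adjusted p = 0.678). It was 0.00053 without untreated 1 and -2.11 without Minnelide 2, so each of these tumors moved the value. Fbxo30, the third ligase gene, kept to 33.2 to 77.2 CPM in the untreated and 52.3 to 63.6 CPM in the Minnelide tumors, with a log2 change of 0.07 ± 0.27 (SE, edgeR adjusted p = 0.976).

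Foxo1, whose protein drives Trim63 and Fbxo32, was at 426, 156, 226 and 217 CPM in the untreated tumors and at 86.6, 465, 70.3 and 174 CPM in the Minnelide tumors. The highest tumor of each group was the one that stood apart. The log2 change was -0.33 ± 0.57 (SE, edgeR adjusted p = 0.913), and -1.38 without Minnelide 2 (edgeR adjusted p = 0.319). Foxo3 was at 178, 77.9, 111 and 155 CPM in the untreated and at 106, 149, 83.7 and 116 CPM in the Minnelide tumors, a log2 change of -0.22 ± 0.31 (SE, edgeR adjusted p = 0.880), which was -0.09 without untreated 1 and -0.48 without Minnelide 2.

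Among the synaptic genes, Chrna1 was at 82.2, 99.9, 42.3 and 25.8 CPM in the untreated and at 50.4, 56.3, 36.8 and 63.9 CPM in the Minnelide tumors (log2 change -0.24 ± 0.38, SE, edgeR adjusted p = 0.897). As each tumor in turn was left out this value ran from -0.53, without untreated 4, to -0.0063, without untreated 2. Chrng was at 10.03, 17.98, 27.8 and 7.38 CPM against 10.9, 24.97, 13.4 and 58.1 CPM (0.56 ± 0.58, SE, edgeR adjusted p = 0.812). The 58.1 CPM of Minnelide 4 rested on 53 nuclei, and the log2 change of Chrng ran from 0.18 without that tumor to 1.04 without untreated 3. Musk was at 374, 254, 361 and 274 CPM in the untreated and at 162, 777, 255 and 337 CPM in the Minnelide tumors, so that Minnelide 2 was the highest and Minnelide 1 the lowest. Its log2 change was 0.28 ± 0.44 (SE, edgeR adjusted p = 0.900), and -0.46 without Minnelide 2.

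Ncam1 was at 536, 955, 1211 and 701 CPM in the untreated and at 1082, 732, 1464 and 1040.4 CPM in the Minnelide tumors. Untreated 1, the highest tumor for both ligase genes, was the lowest for Ncam1. The log2 change was 0.30 ± 0.32 (SE, edgeR adjusted p = 0.817), and 0.09 without untreated 1. Runx1 was at 458, 1512, 1297 and 651 CPM against 659, 1282, 884 and 942 CPM, and untreated 1 was again the lowest. Its log2 change was -0.06 ± 0.39 (SE, edgeR adjusted p = 0.986).

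**Figure D2:**
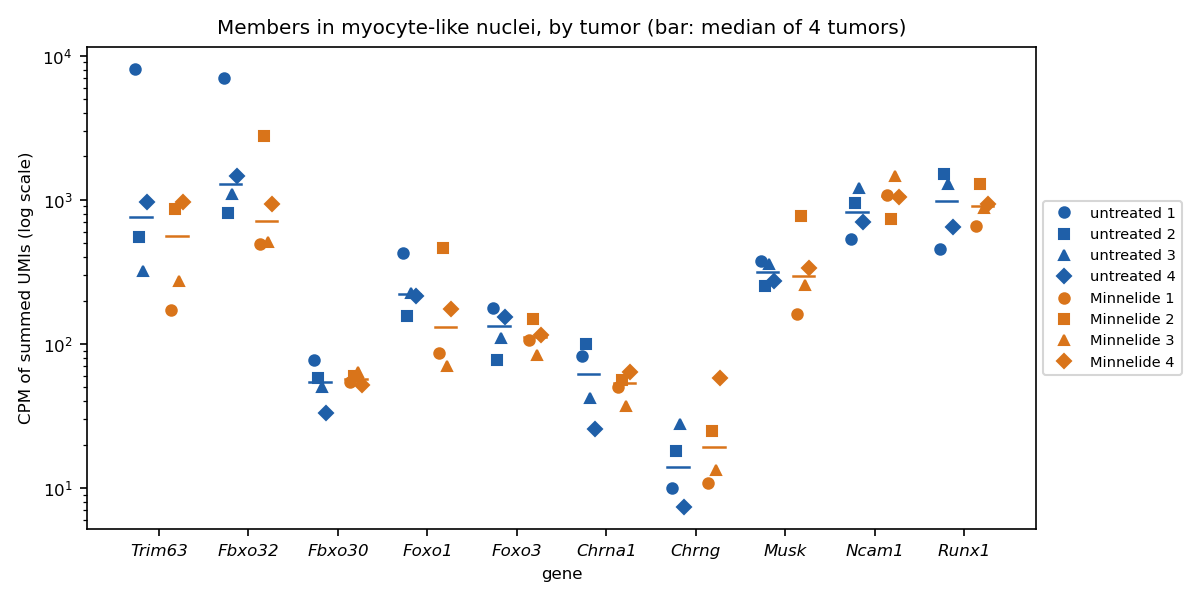
Level of each gene in myocyte-like nuclei, in CPM on a logarithmic axis, with 1 symbol per tumor (blue untreated, orange Minnelide) and a bar at the median of the 4 tumors of a group. Untreated 1 lies at 8090 CPM for Trim63 and 6962 CPM for Fbxo32, above every other tumor, and is the lowest tumor for Ncam1 and Runx1.

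**Figure D3:**
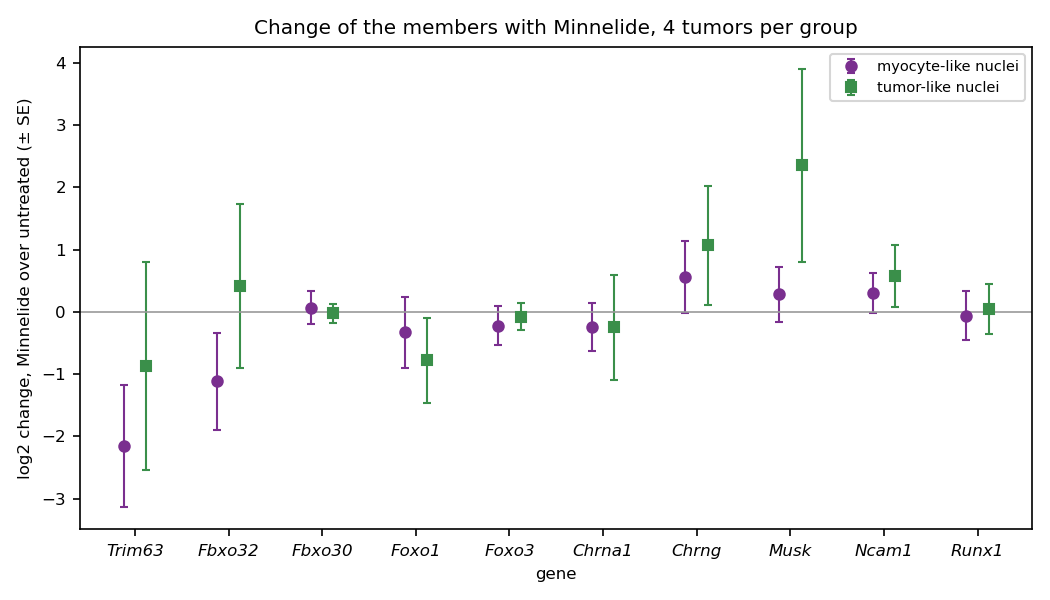
Log2 change of each gene, Minnelide over untreated (vertical axis), with its standard error, in myocyte-like (purple circles) and tumor-like nuclei (green squares), 4 tumors per group. The widest standard errors belong to Trim63, Fbxo32 and Musk in tumor-like nuclei, and no gene passed the test in either class.

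The naming of clusters bore on these values. A stricter rule leaves unnamed any cluster with at least 3 raised markers of another class. Only a cluster shared by all tumors then stayed myocyte-like, with 63 nuclei of untreated 1 and 325 of Minnelide 2. Under this rule the log2 change of Trim63 was -0.51 and that of Fbxo32 -0.33. Those of Ncam1 and Chrng turned to -0.58 and -0.39. Of the 10 genes, 1 was then higher and 9 lower with Minnelide, against 4 and 6 in the main setting. Their median log2 change was -0.42, against 0.01 over all genes, of which 51.4% were higher. None of the 10 was called under this rule. With the largest unnamed cluster added to the myocyte-like class instead, the log2 changes of Trim63 and Fbxo32 were -1.19 and -0.44. This cluster held 3457 nuclei of untreated 1 (99.9% of the cluster), was led by Myh4, Mylpf, Myh1 and Acta1, and had a median of 1299 UMIs per nucleus. Trim63 was at 391 CPM in it, Fbxo32 at 765 CPM, Musk at 14.2 CPM and Ncam1 at 181 CPM. Its nuclei thus carried fiber genes with little Musk.

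Myocyte-like nuclei fell into a cluster shared by all 8 tumors, into a cluster of 1183 nuclei that was 99.9% untreated 1, into a cluster of 2088 nuclei that was 98.0% Minnelide 2, and into a small shallow cluster. The shared cluster held 63, 95, 398 and 541 nuclei of untreated 1 to 4 and 423, 325, 44 and 24 nuclei of Minnelide 1 to 4. Under the stricter naming only the shared cluster kept the myocyte-like name, so each of the others also held raised markers of another class. A cluster made mostly of 1 library may reflect that library and not a kind of cell. The values below are therefore descriptions of single tumors, and their 95% Poisson intervals cover counting error only.

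In the own cluster of untreated 1, Trim63, Fbxo32, Foxo1 and Foxo3 lay above the shared cluster of every tumor, Chrng, Ncam1 and Runx1 lay below it, and Fbxo30, Chrna1 and Musk lay within its range. Trim63 was at 8750 CPM (95% interval 8661 to 8840), against 605 CPM in the shared cluster of the same tumor and 179 to 951 CPM in the shared cluster over all 8 tumors. Fbxo32 was at 7537 CPM, against 447 CPM in the same tumor and 447 to 1397 CPM over all tumors. Foxo1 was at 441 CPM against 256 CPM, and Foxo3 at 188 CPM against 59.2 CPM. Fbxo30 was at 74.96 CPM against 102 CPM, where the shared cluster ran from 33.6 to 102 CPM over the tumors.

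Ncam1 went the other way within the same tumor, at 165 CPM in the own cluster and 4749 CPM in the shared cluster. The latter value rested on 63 nuclei. It was the highest of the shared cluster over tumors, which had a median of 1164 CPM and a lowest value of 709 CPM. Chrng was at 1.42 CPM (6 UMIs, 95% interval 0.522 to 3.10) against 108 CPM, and Runx1 at 370 CPM against 1458 CPM. Chrna1 was at 72.8 CPM against 188 CPM, inside the range of the shared cluster over tumors (26.0 to 188 CPM). Musk did not separate the clusters, at 372 CPM and 396 CPM. Untreated 1 thus held nuclei with high Trim63 and nuclei with high Ncam1 and Chrng in different clusters.

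The shares of nuclei were compared in the same clusters. At 1000 UMIs, 91.3% of nuclei in the own cluster of untreated 1 had a Trim63 UMI, 94.4% an Fbxo32 UMI and 9.22% an Ncam1 UMI. In the shared cluster, the shares over the 8 tumors were 15.1% to 62.5% for Trim63, 27.4% to 54.1% for Fbxo32 and 37.0% to 85.5% for Ncam1.

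In the own cluster of Minnelide 2, Fbxo32, Foxo1, Foxo3 and Musk lay above the shared cluster of every tumor, Ncam1 lay below it and the other 5 genes lay within its range. Fbxo32 was at 3057 CPM against 1200.1 CPM in the shared cluster of that tumor, Foxo1 at 507 CPM against 247 CPM and Foxo3 at 159 CPM against 100.01 CPM. Musk was at 837 CPM against 478 CPM. Trim63 was at 922 CPM against 525 CPM, and Fbxo30 at 60.9 CPM against 60.005 CPM. Ncam1 was at 678 CPM against 1048 CPM and lay just below the lowest shared value, 709 CPM. Runx1 was at 1331 CPM against 1009 CPM, Chrng at 23.99 CPM against 29.6 CPM and Chrna1 at 58.4 CPM against 34.8 CPM.

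**Figure D4:**
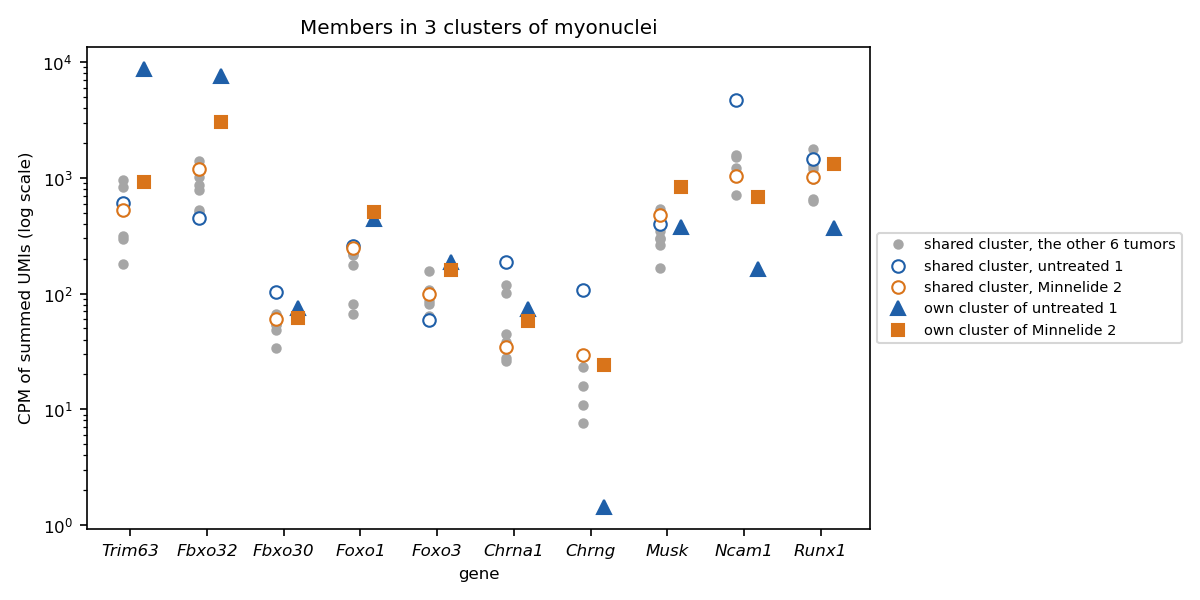
Level of each gene, in CPM on a logarithmic axis, in the myocyte-like cluster shared by all tumors (circles, with untreated 1 and Minnelide 2 as open circles), in the own cluster of untreated 1 (triangles) and in the own cluster of Minnelide 2 (squares). For Trim63 and Fbxo32 the triangle lies at 8750 and 7537 CPM, above all circles, and for Chrng, Ncam1 and Runx1 it lies below all circles.

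The cluster of untreated 1 recurred when clusters were made without the mitochondrial filter, without doublet removal or at Leiden resolution 0.5, with 1182 to 1251 nuclei, Trim63 at 8549 to 8754 CPM and Ncam1 at 162 to 165 CPM. In no setting were differences between tumors corrected before clustering. Recurrence therefore cannot tell whether a cluster reflects the library or a kind of cell. Without the mitochondrial filter a second cluster, with 2664 nuclei of untreated 1 (99.85% of the cluster) and a median of 999 UMIs, was also named myocyte-like and had Trim63 at 959 CPM, Fbxo32 at 1761 CPM, Ncam1 at 192 CPM and Musk at 23.8 CPM. That of Minnelide 2 recurred without the mitochondrial filter, with 2152 nuclei. At resolution 0.5 it merged with the shared cluster. Without doublet removal 1269 nuclei of Minnelide 2 made up 45.6% of a mixed myocyte-like cluster. In that setting Minnelide 2 had 1330 myocyte-like nuclei, against 2474 in the main setting, and 2568 unnamed nuclei, against 64. The boundary of the own cluster of Minnelide 2 and the naming of nuclei in that tumor thus depended on the clustering.

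The other genes of these pathways, in 3 lists, were compared in the same way. Of all 9022 genes with a mean of at least 10 CPM over the clusters, 18.1% were above the shared cluster of every tumor in the own cluster of untreated 1, and 17.0% were below it. Of 22 further ligase, proteasome and autophagy genes, 15 were above and 1 below. Of 21 upstream signals and FOXO targets, 8 were above and 3 below. Of 20 further postsynaptic and denervation genes, 0 were above and 6 below. The median difference between the own and the shared cluster of untreated 1, as log2 of CPM + 1, was 1.09, 0.65 and -2.34 for the 3 lists and -0.03 for all genes.

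Examples, chosen after their values were seen, cover several steps of the program. Zfand5, which encodes a zinc finger protein of proteasome activation, was at 1182 CPM in the own cluster and 315 CPM in the shared cluster of untreated 1. Bnip3, a gene of mitophagy, was at 271 CPM against 37.7 CPM, and Gabarapl1, of autophagosome formation, at 75.2 CPM against 10.8 CPM. Among targets of FOXO or glucocorticoid signaling, Sesn1 was at 854 CPM against 180 CPM, Klf15 at 98.0 CPM against 13.5 CPM and Ddit4, an inhibitor of mTOR signaling, at 198 CPM against 40.4 CPM. These examples were thus high in the nuclei in which Trim63 was high. Other genes of the same lists went the other way within untreated 1. Gadd45a was at 62.9 CPM in the own and 344 CPM in the shared cluster, Cdkn1a at 103 CPM against 460 CPM. Trim55 was at 293 CPM against 468 CPM. Their levels in the own cluster lay inside the range of the shared cluster over tumors.

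Of the 6 postsynaptic and denervation genes below the shared cluster of every tumor, Chrnd encodes an acetylcholine receptor subunit, Ache and Colq the synaptic esterase and its anchor, Dok7 an activator of MuSK, Utrn the dystrophin relative utrophin and Hdac9 a deacetylase. Utrn was at 216 CPM in the own cluster of untreated 1 and at 455 to 2371 CPM in the shared cluster over the tumors. Hdac9 was at 104 CPM, where the shared cluster ran from 235 to 730 CPM, and Dok7 was at 17.8 CPM, where it ran from 19.7 to 96.2 CPM.

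Other genes of this list, Myog, Chrne, Myh3 and Myh8 among them, were lower in the own than in the shared cluster of untreated 1. These lay inside the range over tumors. The 63 nuclei of that shared cluster had the highest level of all tumors for Myog, Chrnd, Chrne and Myh3. Myog, which encodes myogenin, was at 26.1 CPM against 519 CPM, with a range of 19.7 to 519 CPM over the tumors. The receptor subunit gene Chrne was at 4.98 CPM against 164 CPM (2.17 to 164 CPM). Chrnd, at 3.56 CPM against 96.9 CPM, lay just below its range (3.93 to 96.9 CPM). The embryonic myosin gene Myh3 was at 15.7 CPM against 433 CPM (12.5 to 433 CPM) and the perinatal Myh8 at 20.9 CPM against 425 CPM (3.93 to 438 CPM). Hdac4, a deacetylase gene of the denervation response, was not lower in the own cluster, at 348 CPM against 293 CPM.

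In the own cluster of Minnelide 2 the lists stood closer to the shared cluster. Of all genes 6.09% were above and 4.92% below the shared cluster of every tumor. Of the 22 ligase, proteasome and autophagy genes 2 were above (Fbxo31 and Gabarapl1) and 0 below, of the 21 upstream genes 6 above and 1 below, and of the 20 postsynaptic genes 3 above (Hdac4 and Lrp4 among them) and 1 below (Ache). Hdac4 was at 1452 CPM against 952 CPM in the shared cluster of that tumor. The medians were 0.12, 0.26 and -0.14 for the lists and 0.15 for all genes.

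**Figure D5:**
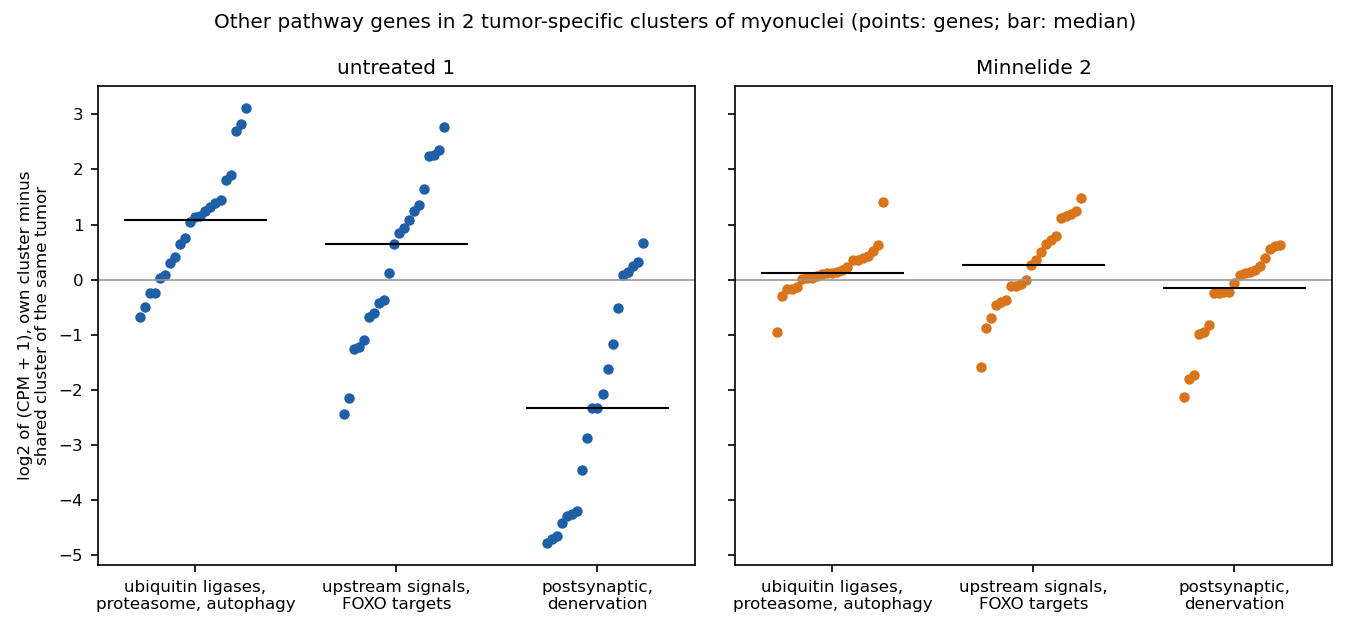
Difference between the own cluster and the shared cluster of the same tumor, as log2 of CPM + 1 (vertical axis), for the genes of 3 lists (horizontal axis) in untreated 1 and in Minnelide 2, with 1 point per gene whose mean was at least 10 CPM and a bar at the median of the list. In untreated 1 the medians are 1.09, 0.65 and -2.34, and in Minnelide 2 they are 0.12, 0.26 and -0.14.

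Between the groups, none of the pathway genes passed the test in myocyte-like nuclei. Of the 22 ligase, proteasome and autophagy genes tested, 4 had a higher and 18 a lower level with Minnelide, 3 had an unadjusted p under 0.05, and the median log2 change was -0.34, against 0.01 over all genes, of which 9.29% had such a p. Without untreated 1 the list stood at 9 higher and 13 lower, with a median of -0.06, and without Minnelide 2 its median was -0.74. Of the 22 upstream genes 11 were higher and 11 lower, with a median of -0.12, which was -0.61 without Minnelide 2. Of the 19 postsynaptic genes 13 were higher and 6 lower, with a median of 0.16, and 11 higher and 8 lower with medians of 0.08 without untreated 1 and 0.09 without Minnelide 2. Under the stricter naming the postsynaptic list had 5 of 17 genes higher and a median of -0.36.

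The 3 genes of each list with the smallest p are given by a rule and none was called. Sqstm1, an autophagy receptor gene, was at 455, 232, 149 and 171 CPM in the untreated and at 101, 140, 111 and 174 CPM in the Minnelide tumors (log2 change -0.98 ± 0.35, SE, edgeR adjusted p = 0.4998). Tfeb, a regulator of lysosome genes, was at 79.9 to 153 CPM against 52.4 to 81.4 CPM (-0.79 ± 0.29, SE, edgeR adjusted p = 0.5001). Zfand5 was at 279 to 1112 CPM against 203 to 327 CPM (-1.06 ± 0.42, SE, edgeR adjusted p = 0.502). The groups overlapped for each of the 3 genes. Without untreated 1 the log2 change of Sqstm1 was -0.57 and that of Zfand5 -0.47.

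Among upstream genes the groups did not overlap for Acvr2b and Igf1r, where 5.85% of genes did not overlap, and edgeR called neither. Acvr2b, the activin and myostatin receptor gene, was at 37.5, 36.0, 35.4 and 51.1 CPM in the untreated and at 29.0, 17.02, 13.4 and 29.1 CPM in the Minnelide tumors (log2 change -0.91 ± 0.32, SE, edgeR adjusted p = 0.4998). Igf1r, the IGF1 receptor gene, was at 472, 853, 835 and 1054 CPM against 1789, 1332, 1330 and 1343 CPM (0.81 ± 0.30, SE, edgeR adjusted p = 0.4998). Without untreated 1 the log2 change of Igf1r was 0.58. Ddit4 was at 185 CPM in untreated 1 and at 2.00 to 7.25 CPM in the other 7 tumors (-3.05 ± 1.26, SE, edgeR adjusted p = 0.506), and without untreated 1 its counts were too low to be tested.

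Among postsynaptic genes, Colq, which anchors acetylcholinesterase, was at 39.7 to 92.2 CPM in the untreated and at 73.9 to 215 CPM in the Minnelide tumors (log2 change 0.84 ± 0.38, SE, edgeR adjusted p = 0.538). Dach2, a repressor of myogenin, was at 2.00 to 12.6 CPM against 7.05 to 29.1 CPM (1.23 ± 0.65, SE, edgeR adjusted p = 0.590). Sln, which encodes the calcium pump regulator sarcolipin, was at 21.1 to 268 CPM against 10.05 to 81.4 CPM (-1.47 ± 0.79, SE, edgeR adjusted p = 0.593). The groups overlapped for these 3 genes. Without untreated 1 the log2 change of Dach2 was 0.77 and that of Colq 0.58. That of Sln was -1.08 without Minnelide 2 and -0.83 without untreated 2.

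The same contrast was made in 4 other classes, in all retained nuclei and, as a difference of changes, between myocyte-like and tumor-like nuclei. None of the 10 genes was called in any of these by edgeR or DESeq2. With edgeR 0 genes were called in each comparison (0%), while 447 to 1561 genes had an unadjusted p under 0.05. DESeq2 called 0.558% of genes in tumor-like, 0.192% in fibroblast-like, 1.63% in endothelial-like, 0% in macrophage-like and 1.31% in all retained nuclei, and 0.0225% in the difference of changes. Genes without a DESeq2 adjusted p count as not called. These were 11891 of 13334 genes in the difference of changes, so DESeq2 hardly tested it. They were 2208 of 10230 genes in endothelial-like nuclei and 22 to 376 genes in the rest.

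No gene of the 10 had groups that did not overlap in tumor-like nuclei, where 5.39% of all genes did so. Musk was there at 18.1, 1.78, 4.98 and 8.45 CPM in the untreated tumors and at 2.72, 142, 1.57 and 1.59 CPM in the Minnelide tumors. Minnelide 2 alone was high, the tumor whose tumor-like nuclei also had the highest myocyte marker ratio. The log2 change was 2.35 ± 1.55 (SE, edgeR adjusted p = 0.725), and without Minnelide 2 it was -1.87. Foxo1 was at 373 CPM in untreated 1 and 72.9 to 80.9 CPM in the other untreated tumors, and at 155 CPM in Minnelide 2 and 33.0 to 76.1 CPM in the other Minnelide tumors (-0.78 ± 0.68, SE, edgeR adjusted p = 0.776). Its log2 change was 0.07 without untreated 1. Ncam1 was at 226 CPM in untreated 1 and at 920 to 1643 CPM in the other 7 tumors (0.58 ± 0.50, SE, edgeR adjusted p = 0.775, and 0.25 without untreated 1). The other 7 genes had log2 changes of -0.87 ± 1.67 for Trim63, 0.41 ± 1.31 for Fbxo32, -0.02 ± 0.15 for Fbxo30, -0.08 ± 0.22 for Foxo3, -0.25 ± 0.84 for Chrna1, 1.07 ± 0.95 for Chrng and 0.05 ± 0.40 for Runx1. As each tumor in turn was left out, Trim63 ran from -4.78 to 1.25, Fbxo32 from -2.63 to 1.58, Chrna1 from -1.70 to 0.26 and Chrng from -0.85 to 1.45. The low Ncam1 of untreated 1 was seen in every class tested, with 246 CPM in fibroblast-like, 53.7 CPM in endothelial-like and 77.8 CPM in macrophage-like nuclei.

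FOXO genes had the smallest p of the 10 genes in stromal and vascular nuclei. In endothelial-like nuclei, where Foxo1 is known to restrain growth, it was at 318, 404, 390 and 445 CPM in the untreated and at 206, 372, 219 and 160 CPM in the Minnelide tumors. Minnelide 2 lay within the untreated range and the other 3 Minnelide tumors below it. The log2 change was -0.67 ± 0.26 (SE, edgeR unadjusted p = 0.0311, adjusted p = 0.285), with an adjusted p of 0.111 to 0.559 as each tumor in turn was left out. Minnelide 4 held 773 of these nuclei, but 164 under the stricter naming, 162 without doublet removal and 218 without the mitochondrial filter. In the cluster that held most of them, of 651 nuclei and 92.8% Minnelide 4, all 8 endothelial markers and 8 tumor markers were raised. With these alternatives the log2 change was -0.52, -0.39 and -0.42 (edgeR adjusted p = 0.6003, 0.725 and 0.899), and without Minnelide 4 it was -0.53 (edgeR adjusted p = 0.559). The other genes tested had log2 changes of -2.31 ± 1.29 for Trim63, -0.62 ± 0.92 for Fbxo32, 0.09 ± 0.20 for Fbxo30, 0.22 ± 0.23 for Foxo3, -1.39 ± 1.01 for Chrna1, 1.15 ± 0.58 for Ncam1 and 0.61 ± 0.57 for Runx1. Without untreated 1 those of Trim63, Fbxo32 and Chrna1 were -0.20, 0.77 and -0.16. Chrng and Musk were too low to be tested. In this class 8.62% of genes had groups that did not overlap, and none of the 10 was among them.

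In fibroblast-like nuclei the groups did not overlap for Foxo1 and Foxo3, where 3.69% of all genes did not overlap. Foxo1 was at 174, 170, 157 and 186 CPM in the untreated and at 108, 136, 126 and 145 CPM in the Minnelide tumors (log2 change -0.37 ± 0.13, SE, edgeR adjusted p = 0.948). Foxo3 was at 187, 227, 179 and 228 CPM against 125, 166, 123 and 176 CPM (-0.44 ± 0.17, SE, edgeR adjusted p = 0.948). The other genes tested there had log2 changes of -2.95 ± 1.48 for Trim63, -0.63 ± 0.60 for Fbxo32, -0.16 ± 0.18 for Fbxo30, -0.48 ± 1.05 for Chrna1, -0.39 ± 0.39 for Musk, 0.44 ± 0.43 for Ncam1 and 0.00086 ± 0.21 for Runx1. Without untreated 1 those of Trim63, Fbxo32, Chrna1 and Ncam1 were -0.10, 0.16, 0.98 and 0.13. Chrng was too low to be tested.

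In macrophage-like nuclei the groups did not overlap for Foxo3, at 237 to 287 CPM against 180 to 231 CPM (-0.26 ± 0.18, SE, edgeR adjusted p = 0.845), where 3.03% of genes did not. The log2 changes were -0.97 ± 1.07 for Fbxo32, -0.03 ± 0.31 for Fbxo30, -0.43 ± 0.24 for Foxo1, 0.85 ± 0.57 for Ncam1 and 0.08 ± 0.31 for Runx1, and that of Fbxo32 was 1.19 without untreated 1. Trim63, Chrna1, Chrng and Musk were too low to be tested. The FOXO genes of these classes were singled out after their values were seen, and the adjusted tests did not call them.

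In all retained nuclei the log2 change of Trim63 was -1.33 ± 1.65 (SE, edgeR adjusted p = 0.787) and that of Musk 1.51 ± 1.35 (SE, edgeR adjusted p = 0.701). Without untreated 1 the value of Trim63 was 0.70, and without Minnelide 2 that of Musk was -2.17. Those of the other genes were 0.11 ± 1.38 for Fbxo32, 0.07 ± 0.15 for Fbxo30, -0.42 ± 0.57 for Foxo1, -0.09 ± 0.20 for Foxo3, -0.32 ± 0.95 for Chrna1, 1.05 ± 0.98 for Chrng, 0.59 ± 0.47 for Ncam1 and -0.24 ± 0.34 for Runx1. As each tumor in turn was left out, Fbxo32 ran from -3.16 to 1.28 and Chrng from -1.05 to 1.43. In such sums, fewer nuclei of a type and less RNA per nucleus cannot be told apart. The change of Trim63 in myocyte-like minus that in tumor-like nuclei was 0.68 ± 0.93 (SE, edgeR adjusted p = 0.981), so no difference between the classes was shown. For Ncam1 it was -0.54 ± 0.39 (SE, edgeR adjusted p = 0.860), and -0.14 without untreated 1. For the other genes it was -0.21 for Fbxo32, 0.08 for Fbxo30, 0.01 for Foxo1, -0.12 for Foxo3, 0.44 for Chrna1, 0.07 for Chrng, -0.02 for Musk and 0.09 for Runx1.

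Genes whose pattern was most like each member were sought over the 55 sums of a tumor and a class, among 9720 genes, by Pearson's r on log2 of CPM + 1. These sums share libraries and classes, so the values are descriptions. Trim63 was most like Atp2a1 (r = 0.949), the fast muscle calcium pump gene, and Nrap (0.947). Fbxo32 was most like Psma3 (0.900), a proteasome subunit gene, and then Trim63 (0.894). Chrna1 was most like the fast fiber genes Mylpf (0.899) and Tnnt3 (0.896), Chrng like Dupd1 (0.899) and Best3 (0.898) and Musk like Dusp13 (0.890) and Jph1 (0.888).

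The genes that did not follow muscle had other partners. Ncam1 was most like Sgcd (0.894) and Dok5 (0.894), Runx1 like Ank2 (0.783) and Vmp1 (0.751) and Foxo1 like Ralgapa2 (0.798) and Fam219a (0.731). Foxo3, with Ip6k1 (0.673) and Nsmce2 (0.661), and Fbxo30, with Gucd1 (0.643) and Mid1ip1 (0.623), had the lowest values of the 10 genes.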

How the data were processed

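The authors deposited raw UMI counts per gene and nucleus for 8 tumors. Per the labels they used bcl2fastq 2.20 and Cell Ranger 7.0.1 with mm39, whereas the matrix headers name 9.0.1. Counts of overlapping genes are uncertain. Nuclei under 200 genes, those that a mixture model of mitochondrial percent on genes put in the damaged component (posterior 0.75 or more), and the top Scrublet scores (0.8% per 1000 nuclei) were removed. Clustering (scanpy 1.11.5, igraph 0.11.9) used 2000 variable genes without the 10 genes, the pathway lists or the markers, 30 principal components, 40 neighbors and Leiden resolution 1, and gave 31 clusters. A name needed at least 3 markers raised 1.5-fold over the 10th percentile of the clusters of a tumor (after adding 20 CPM) in 5% of nuclei. This scoring rule was set after clusters had been seen. Differences between tumors were not corrected before clustering, whereas the study applied Harmony across its samples.

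UMIs were summed per tumor and class (at least 20 nuclei) and tested with edgeR 4.0.16 (quasi-likelihood, TMM, filterByExpr, R 4.3.3) over all genes, at an adjusted p of 0.05. SE is the log2 change over the square root of F. DESeq2 1.42.0, other filters, clusterings and naming, and each tumor left out were alternatives. The method was tested on simulated data with the same dispersion for every gene and no outlying tumor. That simulation does not measure what the test could detect in these tumors. By rule, all 10 genes that could be tested are named in every comparison, and in each pathway list the 3 genes with the smallest p in myocyte-like nuclei. The genes and lists were chosen with earlier results of these data known. Response words in file names are absent from the labels and were not used. The study describes its treated snRNA-seq tumors as ones with a favorable or a poor response. The Minnelide group may therefore mix both, which bears on its spread. Of the pathway lists, 1 gene is not reported here by name.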

Additional observations from a re-analysis of the deposited data

Results flagged for a closer look

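In 30 of 100 groups of 4 tumors (each gene in 5 classes and in each treatment group), the highest or lowest tumor lay apart from the other 3 by more than Dixon's 95% critical value. Chance would mark about 1 in 20 groups of independent, normally distributed values. These groups reuse the same tumors over genes and classes, so that rate does not measure an excess here. Untreated 1 was the outlying tumor in 13 of the 30 groups and Minnelide 2 in 15. The cause was not tested.

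In untreated 1, Trim63 was at 8090 CPM in myocyte-like, 298 CPM in tumor-like, 249 CPM in fibroblast-like, 137 CPM in endothelial-like and 360 CPM in macrophage-like nuclei. Fbxo32 was at 6962 CPM in myocyte-like, 362 CPM in tumor-like, 328 CPM in endothelial-like and 623 CPM in macrophage-like nuclei of that tumor. Foxo1 was at 373 CPM in its tumor-like nuclei. Ncam1 was low there, at 226 CPM in tumor-like and 246 CPM in fibroblast-like nuclei. Chrng was at 2.31 CPM in its macrophage-like nuclei, where the other untreated tumors had 0 UMIs.

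In Minnelide 2, Trim63 was at 151 CPM in tumor-like, 26.9 CPM in fibroblast-like, 32.8 CPM in endothelial-like and 54.6 CPM in macrophage-like nuclei, and Fbxo32 was at 526 CPM in tumor-like, 195 CPM in fibroblast-like and 194 CPM in endothelial-like nuclei. Musk was at 142 CPM in tumor-like, 47.0 CPM in fibroblast-like and 36.9 CPM in endothelial-like nuclei. Chrna1 was at 20.7 CPM in tumor-like and 24.6 CPM in endothelial-like nuclei, and Chrng at 5.34 CPM in tumor-like, 5.47 CPM in endothelial-like and 6.43 CPM in macrophage-like nuclei. Beside these values, the summed myocyte markers in tumor-like nuclei were 25.3% of their level in myocyte-like nuclei in Minnelide 2 and 11.8% in untreated 1.

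Away from these 2 tumors, Foxo3 was at 146 CPM in tumor-like nuclei of untreated 4, below 180 to 187 CPM in the other untreated tumors, and at 287 CPM in macrophage-like nuclei of untreated 3, above 237 to 240 CPM in the others.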

How the results depend on the processing

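edgeR called 0 genes in each comparison under its own alternatives, except that all retained nuclei gave 0 to 1 gene as each tumor was left out. DESeq2 called 25 genes in myocyte-like, 73 in tumor-like, 22 in fibroblast-like, 167 in endothelial-like and 181 in all retained nuclei, and 3 in the difference of changes. None of the 10 genes was called under any alternative, where a gene without a DESeq2 adjusted p counts as not called. In myocyte-like nuclei the log2 change turned to the other sign for Runx1 without doublet removal (0.21) or the mitochondrial filter (0.24), for Chrna1 without doublet removal (0.13), for Fbxo30 without a filter on low counts (-0.0070), and under the stricter naming for Fbxo30 (-0.0048), Chrng (-0.39) and Ncam1 (-0.58). As each tumor was left out, the change ranged from -2.11 to 0.00053 for Fbxo32, from -0.13 to 0.26 for Fbxo30, from -0.46 to 0.55 for Musk and from -0.34 to 0.17 for Runx1, and the difference of changes for Trim63 ranged from -0.045 to 1.67. Without thinning, the median share of myocyte-like nuclei with a UMI was 16.4% for Fbxo30, 36.9% for Foxo1, 32.1% for Foxo3, 16.7% for Chrna1, 4.49% for Chrng, 40.4% for Musk, 66.4% for Ncam1 and 68.1% for Runx1, as depth sets this share. The causes of the other shifts were not tested. The stricter naming left too few tumors for a test in tumor-like, fibroblast-like and macrophage-like nuclei and for the difference of changes. Minnelide 3 and 4 had 63 and 53 myocyte-like nuclei, which limits what could be detected. No paired analysis was possible because the labels give the tumors no replicate numbers.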

Other observations

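The untreated tumor with the highest Trim63 also had the largest number of unnamed nuclei, 3457 of its 8979 retained nuclei. In that cluster Foxo1 was at 337 CPM, Foxo3 at 140 CPM, Runx1 at 207 CPM, Chrna1 at 95.3 CPM, Fbxo30 at 35.3 CPM and Chrng at 6.30 CPM. Tumor-like nuclei of untreated 1 had a median of 9117 UMIs, against 810 to 3961 UMIs in the other tumors, and its Foxo1 level there was 87.5% of that in its myocyte-like nuclei. The shallow myocyte-like cluster held 61 nuclei of Minnelide 2, in which Fbxo32 was at 2356 CPM, and 43 nuclei of Minnelide 1, in which it was at 221 CPM.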
